A study of Mus musculus with 5 samples.

Results

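Transforming growth factor β (TGF-β) signaling was followed at the transcript level in CD45- cells sorted from B16-OVA tumors, through 8 genes that form its core. They were 3 ligands (Tgfb1, Tgfb2 and Tgfb3), 2 receptors (Tgfbr1 and Tgfbr2) and 3 SMADs (Smad2, Smad3 and Smad4), chosen by name among 750 endogenous probes of the NanoString nCounter PanCancer Immune panel for mouse, which counts bar-coded transcripts without amplification. Each gene was read by 1 probe, placed between base 475 (Tgfbr2) and base 4425 (Tgfbr1) of its target transcript, and all 8 probes lay above background in every sample. Cells came from 2 samples of Prdm1fl/flFoxP3YFP-Cre mice (KO), whose Foxp3+ regulatory T (Treg) cells lack the transcription factor Blimp1, and from 3 samples of FoxP3YFP-Cre mice (WT). Both groups were C57BL/6, carried the Cre driven by Foxp3, received B16.OVA melanoma cells under the skin at day 0, and were immunized with NP-OVA at day 0 in CFA and at day 7 in IFA. Live CD45- cells were taken when tumors measured at most 1.5 cm3. The deletion was driven in host Foxp3+ cells, which the sort removed, and the transplanted melanoma cells were the same line in both groups. The labels name samples without giving the mice, their ages or their sexes, and p-values measure the spread between these samples.

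TGF-β is made as a latent dimer that must be released before it acts. The freed ligand brings together the type II receptor, encoded by Tgfbr2, and the type I receptor, encoded by Tgfbr1, which then phosphorylates SMAD2 and SMAD3. These bind the common partner SMAD4, and the complex enters the nucleus to regulate transcription. In tumors the pathway is known for restraining cytotoxic T-cells, for promoting Treg cells and for shaping the matrix, and melanoma cells both produce and sense the ligands. The comparison asked whether the transcripts of this pathway in the sorted cells differed when Treg cells lacked Blimp1. Signaling itself, which depends on ligand release and SMAD phosphorylation, was not measured by the panel.

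Endogenous counts summed to between 450207 and 461822 in KO samples and between 369515 and 423472 in WT samples. Normalized counts are raw counts divided by a factor from the 20 housekeeping probes, which was 1.14 and 1.01 in KO samples and between 0.935 and 0.971 in WT samples. Background, set at the mean plus 2 SD of the negative controls, was 13.1 to 17.7 counts, and 401 endogenous probes above it in at least 2 samples were tested. Ptprc, which encodes CD45, had 3 and 1 raw counts in KO samples and 1, 4 and 4 in WT samples, all below background. The T and NK cell, B cell and endothelial lists each had few or no markers above background in any sample, with 3 of 9, 0 of 4 and 1 of 6. Prdm1 itself had at most 10 raw counts and Foxp3 at most 5, so neither could check the genotype in cells from which Treg cells were sorted away.

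None of the 8 genes passed an adjusted p of 0.05 by edgeR's quasi-likelihood test, with adjusted p from 0.71 to 0.996, and neither did any other probe (0% of 401). Before adjustment 25 of the 401 probes had a p under 0.05, and DESeq2 called 3 genes after adjustment, none of them among these 8. The median log2 fold change of the 8 genes was -0.052, beside -0.069 for all tested probes. Smad3, which encodes a receptor-activated SMAD, was the only member with an unadjusted p under 0.05, a threshold passed by 6.23% of all tested probes and by 3.49% in the direction of lower counts in KO. It was also the only member whose KO samples all lay below the WT samples, as did 14.7% of all probes, and no member had all KO samples above WT, as did 8.98%. A count of 1 in 8 is near the share of all probes with KO below WT, and nothing about the pathway as a whole is read from it. In bulk samples such as these, fewer cells of a type and less RNA per cell cannot be told apart.

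**Figure D1:**
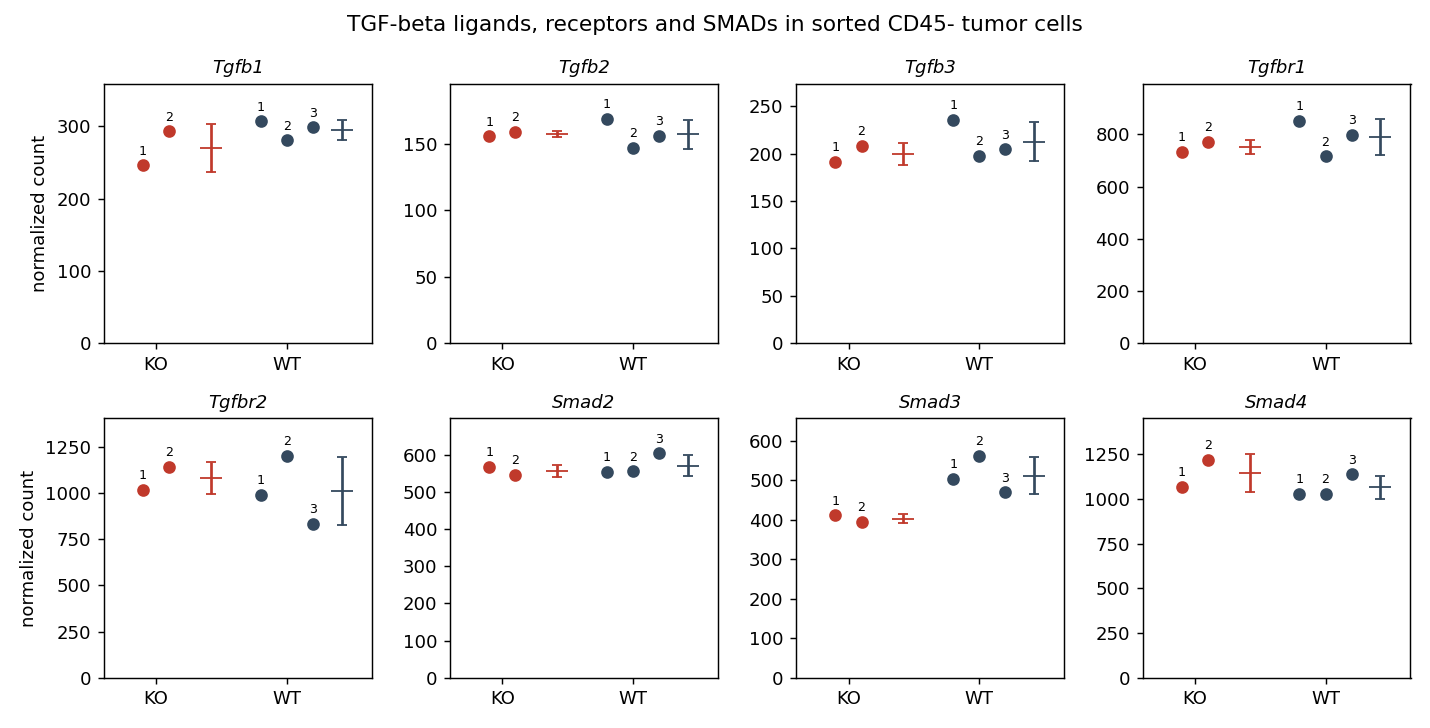
Normalized counts (y axis, starting at 0, with its own scale for each gene) of the 8 genes in KO and WT samples. Points are samples with their replicate numbers, and bars show mean ± SD (n = 2 for KO and n = 3 for WT). Smad3 is the only gene whose KO points, 411 and 395, all lie below its WT points, 505, 563 and 470.

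The 3 ligands gave low and steady counts. Tgfb1, the isoform most widely made by immune and tumor cells, had 246 and 293 normalized counts in KO samples and 307, 280.5 and 298.5 in WT samples. KO 1 was the lowest of the 5 samples, while KO 2 lay inside the WT range. The log2 fold change was -0.13 (SE 0.15, 95% interval -0.51 to 0.24, adjusted p = 0.845 by edgeR), and it was -0.011 without KO 1.

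Tgfb2, an isoform best known from development and from the eye, had 156 and 159 normalized counts in KO samples and 169, 147 and 156 in WT samples. Both KO samples lay within the WT range, and the group means were 157 ± 2.15 (SD, n = 2) in KO and 157 ± 10.9 (SD, n = 3) in WT. Its log2 fold change of -0.0014 had a 95% interval from -0.40 to 0.40. Tgfb3, the isoform needed for closure of the palate, had 192 and 208 normalized counts in KO samples and 236, 197 and 204 in WT samples. WT 1 stood highest and the other 4 samples lay close together, with a log2 fold change of -0.088 (95% interval -0.49 to 0.32). For Tgfb2 the interval ran from 0.759 to 1.32 on the fold scale, so the data do not show that the groups were alike.

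The makeup of the ligand counts was also compared, since a ratio of 2 probes in a sample needs no scaling. The probes ranked Tgfb1, Tgfb3 and Tgfb2 from high to low in 5 of 5 samples. Because probes differ in how well they capture their transcripts, this ranks counts and not molecules of the isoforms. Tgfb1 made up 41.4% and 44.4% of the summed raw ligand counts in KO samples and 43.1%, 44.9% and 45.3% in WT samples. Tgfb2 made up 26.3% and 24.1% in KO samples and 23.5% to 23.7% in WT samples, and Tgfb3 held 32.3% and 31.5% in KO samples and 31.0% to 33.1% in WT samples. KO 1 thus had the lowest Tgfb1 share and the highest Tgfb2 share, with KO 2 at 24.1% for Tgfb2 just above the highest WT sample.

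The ratio of Tgfb2 to Tgfb1 counts was 0.633 and 0.542 in KO samples and 0.5503, 0.525 and 0.523 in WT samples. KO 2 lay within the WT range, and the difference in mean log2 ratio was 0.14 (two-sided exact permutation test p = 0.4, adjusted p = 0.467 over 7 ratios). This difference was 0.025 without KO 1 and 0.25 without KO 2. The ratios of Tgfb3 to Tgfb1 and of Tgfb2 to Tgfb3 differed by 0.052 and 0.086 on the log2 scale, with overlapping groups and the same exact p = 0.4, and without KO 1 they differed by -0.015 and 0.041. With 2 against 3 samples the smallest p this test can give is 0.2, so no ratio could pass 0.05.

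The receptor probes gave higher counts than the ligand probes, and the 3 WT samples of Tgfbr2 were far apart. Tgfbr1, which encodes the type I receptor kinase ALK5, had 734 and 772 normalized counts in KO samples and 853, 716 and 799 in WT samples. The KO samples lay inside the WT range, and the log2 fold change was -0.067 (SE 0.12, 95% interval -0.38 to 0.25). Tgfbr2, which encodes the ligand-binding type II receptor, had 1020.3 and 1142 normalized counts in KO samples and 993, 1204 and 836 in WT samples. WT 3 was the lowest and WT 2 the highest of the 5 samples, with both KO samples between them. The log2 fold change was 0.097 (SE 0.18, 95% interval -0.37 to 0.56), and it was -0.023 without WT 3.

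The count of Tgfbr2 exceeded that of Tgfbr1 in 5 of 5 samples. Their ratio was 1.39 and 1.48 in KO samples and 1.16, 1.68 and 1.05 in WT samples. The KO samples sat close together between the WT extremes, and the difference in mean log2 ratio of 0.17 was within the WT spread (SD 0.36, exact permutation p = 0.6). It was 0.035 without WT 3 and 0.38 without WT 2.

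**Figure D2:**
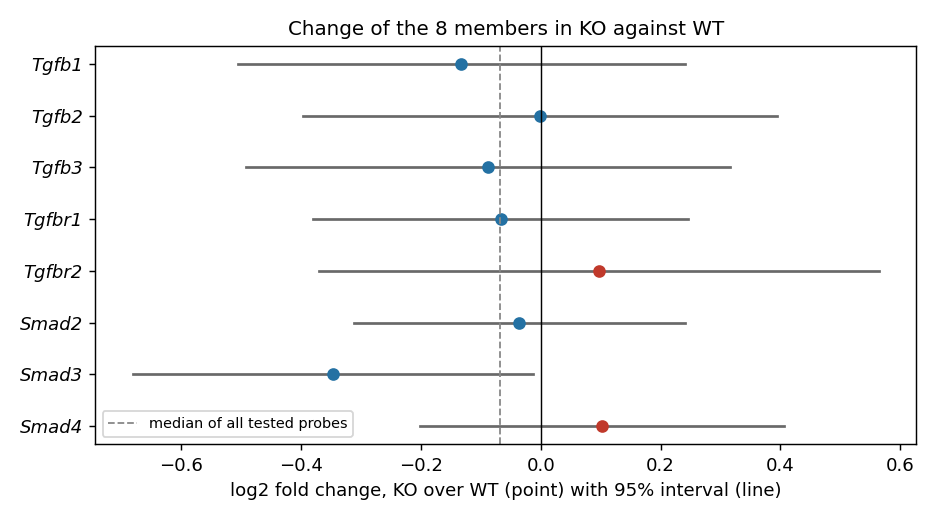
Log2 fold change of KO over WT (x axis, points) with its 95% interval (lines) for the 8 genes, from the edgeR fit of 2 KO and 3 WT samples. The dashed line marks the median of all 401 tested probes, -0.069, red points lie above 0 and blue points below it, and the interval of Smad3, from -0.68 to -0.012, is the only one that does not cross 0.

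Among the SMADs, Smad2 and Smad4 differed little between groups and the KO samples of Smad3 lay below WT. Smad2, which encodes the other receptor-activated SMAD of this pathway, had 569 and 546 normalized counts in KO samples and 555, 556 and 604 in WT samples. The groups overlapped, with a log2 fold change of -0.036 (95% interval -0.31 to 0.24). Smad4, which encodes the partner shared with the bone morphogenetic protein branch, had 1066.7 and 1217 in KO samples and 1026, 1029 and 1136 in WT samples. KO 2 was the highest sample and KO 1 lay within the WT range, with a log2 fold change of 0.10 (95% interval -0.20 to 0.41).

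Smad3 had 411 and 395 normalized counts in KO samples and 505, 563 and 470 in WT samples. Both KO samples were below the lowest WT sample, WT 3, and the means were 403 ± 11.8 (SD, n = 2) in KO and 512 ± 47.2 (SD, n = 3) in WT. The log2 fold change was -0.35 (SE 0.13, 95% interval -0.68 to -0.012), a KO level of 0.786 times that of WT. Its unadjusted p = 0.0445 in the edgeR fit ranked 23 among 401 probes, and its adjusted p = 0.71 missed the threshold.

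The separation of the Smad3 groups depended on scaling. Raw Smad3 counts were 470 and 400 in KO samples and 490, 528 and 439 in WT samples, so that KO 1 lay above WT 3 before scaling. Scaled by positive controls, which correct for the assay but not for RNA input, the values were 468 and 388.5 in KO samples and 504, 520 and 449 in WT samples, again with overlap. The log2 fold change was then -0.20, or -0.27 relative to the median of all tested probes, against -0.28 with housekeeping scaling. On the deposited signal, the groups were apart, at 396 and 384 in KO samples and 481, 547 and 437 in WT samples. With 1 sample left out, the unadjusted edgeR p of Smad3 was 0.117 without KO 1, 0.165 without KO 2, 0.0745 without WT 1, 0.132 without WT 2 and 0.0396 without WT 3.

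Ratios of Smad3 to the other SMADs within a sample also placed KO below WT. They need no scaling factor but reuse the same Smad3 counts, so they are not separate support. The ratio of Smad3 to Smad2 counts was 0.723 and 0.722 in KO samples and 0.909, 1.01 and 0.777 in WT samples. The KO samples were nearly equal and below all WT samples, a difference of -0.31 in mean log2 ratio. The ratio of Smad3 to Smad4 was 0.386 and 0.324 in KO samples and 0.492, 0.547 and 0.413 in WT samples, a difference of -0.44, also without overlap. Both reached p = 0.2, the smallest that the two-sided exact permutation test can give here, and an adjusted p = 0.467 over the 7 ratios. The ratio of Smad2 to Smad4 was 0.533 and 0.449 in KO samples and 0.541, 0.5399 and 0.532 in WT samples, where KO 2 alone stood apart (difference -0.14, exact permutation p = 0.4, or -0.012 without KO 2 and -0.26 without KO 1).

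**Figure D3:**
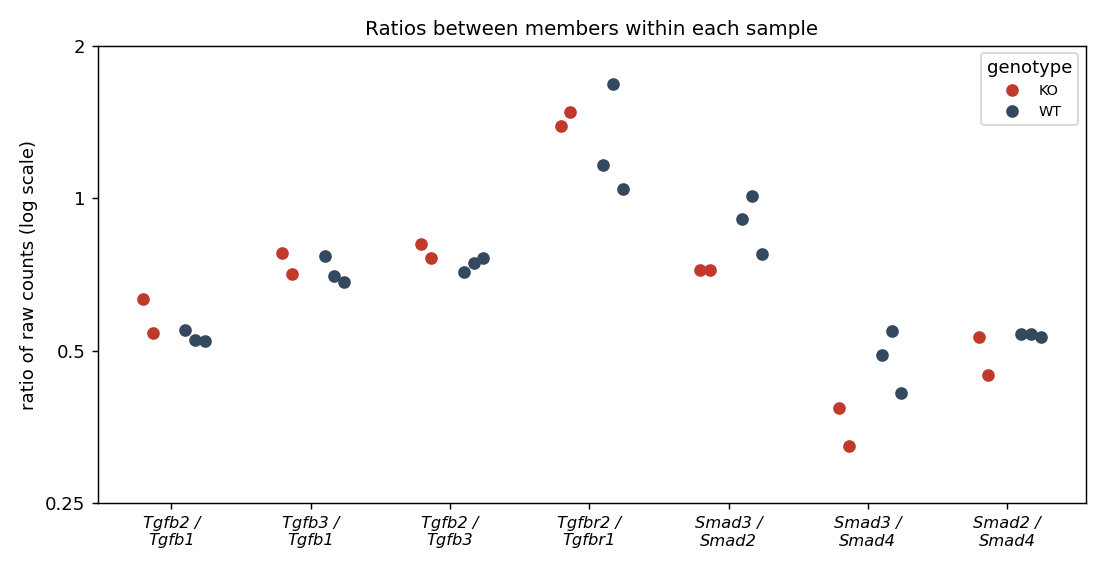
Ratios of raw counts between pairs of the 8 genes within each sample (y axis, log scale), with KO points left of WT points in each pair. The KO points lie below all WT points for Smad3 over Smad2 (0.723 and 0.722) and Smad3 over Smad4 (0.386 and 0.324), and the groups overlap in the other 5 pairs.

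The members varied less across samples than most of the panel. Over the 5 samples, the coefficient of variation of normalized counts had a median of 7.84% among the 8 genes, beside 19.5% over all tested probes, many of which had lower counts. Smad2 and Tgfb2 varied by 4.05% and 4.95%, no more than the 4.2% and 7.97% that counting alone gives at their mean counts. Smad3 and Tgfbr2 varied most, by 14.7% and 13.8%, against counting errors of 4.64% and 3.1%. In Smad3 the spread lay partly between the groups, and in Tgfbr2 it lay mainly among the WT samples. No member reached an SD of 0.3 on the log2 scale across samples (the highest was 0.21), so no genes of similar pattern were sought.

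Other genes of the pathway on the panel were read from lists of activators, SMAD partners and target genes, and none passed the adjusted threshold. Activators and binding proteins had 4 of 17 listed genes on the panel and 3 tested, 1 with a higher and 2 with lower means in KO (median log2 fold change -0.19). Itgb3, an integrin subunit that pairs with αv and can bind latent TGF-β, had 130 and 168 normalized counts in KO samples and 109, 88.5 and 86.7 in WT samples. Both KO samples were above WT, with a log2 fold change of 0.65 (SE 0.21, unadjusted p = 0.0275 and adjusted p = 0.71 by edgeR). The unadjusted edgeR p was 0.164 without KO 2, 0.0741 without WT 2 and 0.0813 without WT 3. Thbs1, which encodes the latent TGF-β activator thrombospondin-1, had 28.9 and 16.8 in KO samples and 37.1, 57.6 and 26.7 in WT samples. KO 1 lay within the WT range, counts were close to background, and the log2 fold change was -0.82 (SE 0.44, adjusted p = 0.744). With 1 sample left out it ranged from -1.26 (KO 1) to -0.47 (WT 2), and it was -0.48 without KO 2. Eng, which encodes the co-receptor endoglin, had 907 and 954 in KO samples and 1012, 1209 and 968 in WT samples. Both KO samples of Eng lay just below WT, with a log2 fold change of -0.19 (95% interval -0.55 to 0.16). It was -0.090 without WT 2 and -0.048 with positive-control scaling. Raw Eng counts overlapped, at 1036 and 967 in KO samples and 983, 1134 and 905 in WT samples.

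SMAD partners and other carriers of the TGF-β signal had 8 of 20 listed genes on the panel and 7 tested, 4 with higher and 3 with lower means in KO (median log2 fold change 0.026). Tab1, an activator of the TGF-β-activated kinase TAK1, had 239 and 217 normalized counts in KO samples and 256, 334 and 288 in WT samples. All KO samples were below WT, with a log2 fold change of -0.36 (SE 0.17, adjusted p = 0.717 by edgeR). It was -0.25 without WT 2, -0.45 without WT 1 and -0.21 with positive-control scaling. Raw Tab1 counts were 273 and 220 in KO samples and 249, 313 and 269 in WT samples, so KO 1 lay within the WT range before scaling. Map3k7, which encodes TAK1 itself, had 857 and 896 in KO samples and 728, 839 and 872 in WT samples, with overlap and a log2 fold change of 0.11, or 0.034 without WT 1 and 0.25 with positive-control scaling. Runx1, a SMAD-binding transcription factor, had 200.4 and 191 in KO samples and 202, 248 and 208 in WT samples, with a log2 fold change of -0.16 (95% interval -0.58 to 0.26) that was -0.063 without WT 2 and -0.012 with positive-control scaling. Creb1, which encodes a transcription factor that recruits the coactivators p300 and CBP, had 396 and 262 in KO samples and 373, 356 and 365 in WT samples, where the KO samples lay on either side of WT. On the log2 scale the difference was -0.15, but 0.12 with KO 2 left out and 0.016 with positive-control scaling. The other 3 tested partners had log2 fold changes from 0.026 to 0.10.

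Target genes had 16 of 30 listed genes on the panel and 11 tested, 4 with higher and 7 with lower means in KO. Among all 401 tested probes, 158 were higher and 243 lower. The list's median log2 fold change of -0.26 was the value of Myc, beside -0.069 for all tested probes. Myc is a gene that TGF-β can repress, so neither the count nor the median measures the pathway's output. Before adjustment 2 targets had an edgeR p under 0.05, both higher in KO, where 2.74% of all tested probes passed in that direction. Vegfa, an angiogenic factor that many signals other than TGF-β also induce, had 5683 and 4762 normalized counts in KO samples and 3964.5, 3312 and 3599 in WT samples. All KO samples were above WT, with a log2 fold change of 0.53 (SE 0.14, adjusted p = 0.487 by edgeR), and the unadjusted edgeR p of 0.0111 was 0.0665 without KO 1. Cdkn1a, which encodes the cell cycle inhibitor p21 and is also a target of p53, had 2378.5 and 3931 in KO samples and 1676, 2146 and 2097 in WT samples. Both KO samples were above WT, with a difference of 0.68 on the log2 scale, which was 0.27 when KO 2 was left out. The unadjusted p of Cdkn1a was 0.0401 by edgeR (adjusted p = 0.71) and 0.0330 by the DESeq2 Wald test. It was 0.0674 by limma and 0.128 by the methods' t-test. Myc, which TGF-β represses in epithelial cells, had 3817 and 2981 in KO samples and 4184, 4168 and 3869.8 in WT samples. Both KO samples lay below WT, with a log2 fold change of -0.26 (95% interval -0.62 to 0.10). It was -0.094 without KO 2, -0.45 without KO 1 and -0.10 with positive-control scaling. Before scaling the groups overlapped, with raw Myc counts of 4362 and 3022 in KO samples and 4063, 3908 and 3617 in WT samples. Thbs1, also on this list, had the values already given, and the other 7 tested targets ranged from -0.95 to 0.52. Of the 19 listed genes for activins, bone morphogenetic proteins and their receptors, 0 were on the panel. Smad7, which encodes an inhibitory SMAD, was not analysed here.

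**Figure D4:**
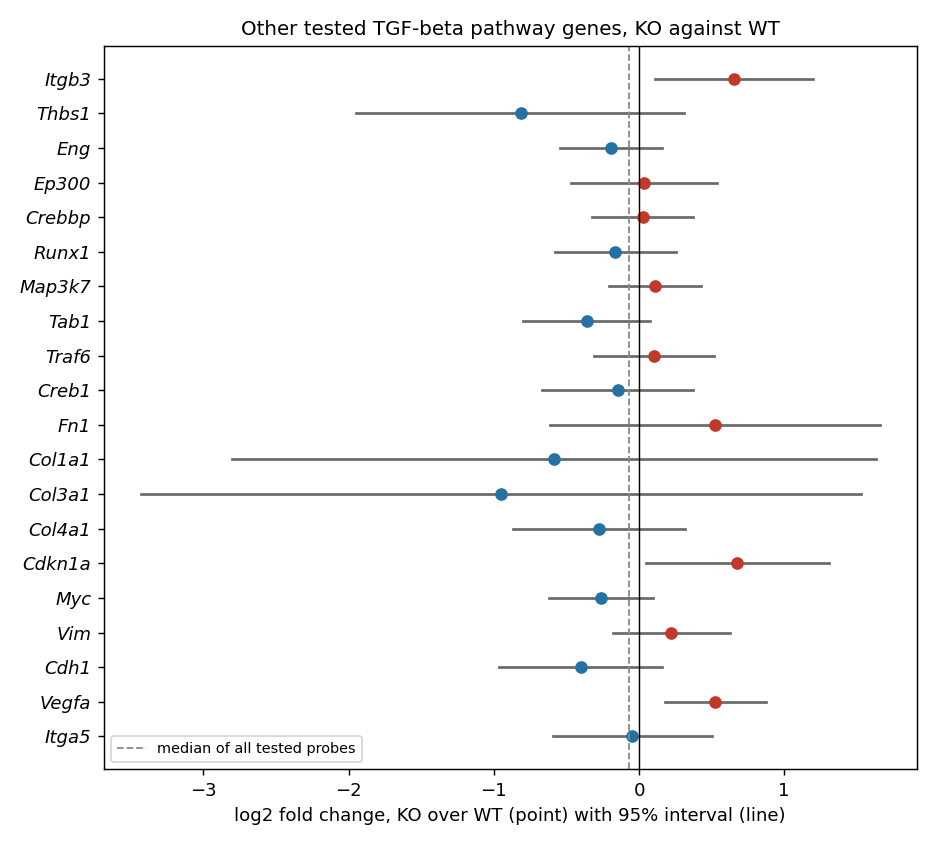
Log2 fold change of KO over WT (x axis, points) with 95% interval (lines) for the 20 other TGF-β pathway genes that were tested, from the edgeR fit of 2 KO and 3 WT samples, with the dashed line at the median of all tested probes, red points above 0 and blue points below it. The intervals of Itgb3, Cdkn1a and Vegfa lie above 0, and none of these genes passed the adjusted threshold.

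Markers of other cells were set beside these values. The sum of 8 myeloid markers was 310 to 319 normalized counts in KO samples and 180 to 294 in WT samples, without overlap. Most of it came from Cd68, and 4 of the 8 were above background in any sample. Cd68 had 243 and 246 in KO samples and 141, 210 and 128 in WT samples. Its log2 fold change was 0.61 (95% interval -0.033 to 1.26, adjusted p = 0.71 by edgeR). Lyz2 overlapped, and Csf1r and Emr1, with at most 15 and 1 raw counts, had KO below WT. The sum of 5 fibroblast markers was 95.7 to 172 in KO samples and 108 to 239.96 in WT samples, and these overlapped. Of the melanocyte list, Mcam and S100b were analysed. Mcam had 2684 and 2607 normalized counts in KO samples and 1727, 1917 and 1668 in WT samples. S100b had 1724 and 1848.5 in KO samples and 1979, 1987 and 1894 in WT samples (log2 fold change -0.13, 95% interval -0.38 to 0.13). Raw S100b counts overlapped, at 1970 and 1874 in KO samples and 1922, 1863 and 1770 in WT samples. Its lower KO level, opposite to Mcam, thus depended on scaling. The part of these cell types in the Smad3, Itgb3 and Vegfa values was not tested.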

How the data were processed

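The authors deposited raw nCounter counts for 784 probes (750 endogenous, 20 housekeeping, 8 negative and 6 positive controls), from 100 ng of RNA per sample. They also deposited a normalized signal made with nSolver, in which each raw count was multiplied by 1 factor per sample (0.842 and 0.959 for KO, 0.981, 1.04 and 0.996 for WT) and endogenous values under 15 were set to 15. Columns were matched to samples by the code in the labels. KO was compared with WT by edgeR 4.0.16 (glmQLFit and glmQLFTest, run under R 4.3.3, no covariate besides genotype), with housekeeping factors as offsets and Benjamini-Hochberg adjustment over 401 tested probes. Approximate 95% intervals came from the same fit. Ratios were compared by exact permutation over samples. The fit was tested on simulated data. Alternatives used DESeq2 1.42.0, limma 3.58.1, the methods' t-test, other scalings and filters, and each sample left out. The members and lists were chosen with earlier results of these data known. All 8 members were named, with up to 4 tested genes of smallest unadjusted p from each pathway list. No genome build is given for the nCounter panel in the sources used here, so positions are given within transcripts. The headers give all samples the same run prefix, so no batch could be compared. Counting errors cover counting only.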

Additional observations from a re-analysis of the deposited data

How the results depend on the processing

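Smad3 had a lower KO value under all 18 alternatives (log2 fold change -0.41 to -0.20), but an unadjusted p under 0.05 held in only 4 (a mean raw count of at least 50, the DESeq2 Wald test, the methods' t-test, and without WT 3), and under the other 14 alternatives 0 members had one, so their number was 0 to 1 with 1 sample left out. Adjusted p for Smad3 ranged from 0.453 to 0.996. Over all probes, DESeq2 called 3 genes at the adjusted threshold and every other alternative 0 (0 to 0 with 1 sample left out). At p under 0.05 before adjustment there were 39 genes without a filter, 16 with the replicate block and 10 to 50 with 1 sample left out.

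With positive controls only, the median of all tested probes moved by 0.14 on the log2 scale and that of the members to 0.091. Under this scaling 7 members were higher and 1 lower in KO. Those that changed from lower to higher were Tgfb1 (0.0018), Tgfb2 (0.14), Tgfb3 (0.049), Tgfbr1 (0.072) and Smad2 (0.11). Creb1, a SMAD partner that is not a member, changed sign likewise (0.016). Tgfb2 had 0.042 with TMM, 0.045 with DESeq2 size factors, 0.027 without G6pdx, 0.025 on the deposited signal and 0.0010 with limma and the methods' t-test. Smad2 had 0.014 with TMM, 0.016 with DESeq2 size factors and 0.0057 with the replicate block, where Tgfbr2 had -0.018.

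With 1 sample left out, log2 fold changes ranged from -0.26 to -0.011 for Tgfb1, -0.048 to 0.052 for Tgfb2, -0.15 to -0.0071 for Tgfb3, -0.13 to -0.0080 for Tgfbr1, -0.023 to 0.24 for Tgfbr2, -0.065 to 0.0060 for Smad2, -0.41 to -0.27 for Smad3, 0.0041 to 0.19 for Smad4 and -0.47 to 0.12 for Creb1, and the members' median from -0.094 to -0.0075. The log2 ratio of Tgfb3 to Tgfb1 ranged from -0.015 to 0.12. Deviations of samples with equal replicate numbers correlated at 0.295 and 0.00025, which cannot tell whether the numbers pair the samples. Without a KO sample, the other was assumed to vary like WT. The causes of these differences were not tested.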
